A study of Mus musculus with 2 samples.

Results

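The mRNAs of 10 complement genes were followed through the cells of mouse colitis-associated colon tumors (CACs). They are *C1qa*, *C1qb*, *C1qc*, *C3*, *C4b*, *Cfb*, *Cfp*, *C3ar1*, *C5ar1* and *Cd55*, 10 of the 32291 genes measured. They were chosen by name, though with earlier results of these data known. The tumors had been induced with azoxymethane (AOM, 10 mg/kg), a carcinogen, and with dextran sodium sulfate (DSS) in the drinking water, which injures the colon mucosa (2.5% in the first colitis periods, 2% in period 3). Mice were 6 to 10 weeks old at the start, were on a C57Bl/6 background and were sacrificed on day 110. In the group labelled Mir34a_Mye_KO, a floxed *Mir34a* gene, which encodes the microRNA miR-34a, was deleted by Cre under the *LysM* promoter. This promoter is active in macrophages, monocytes and neutrophils, so cells outside the myeloid lineage should keep *Mir34a*. How far other myeloid cells keep it was not measured. The group labelled Mir34a_F/F consists of littermates that carry the floxed gene without Cre. For each genotype, 6 to 8 tumors of 3 mice were combined, 30000 cells were loaded and 1 single-cell library was made. Differences between the genotypes were therefore not tested. Every interval given is a 95% interval of counting error, and how much mice vary is not part of it.

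Complement is a set of plasma and membrane proteins that mark cells, microbes and debris for removal. In the classical pathway, C1q, built from the chains encoded by *C1qa*, *C1qb* and *C1qc*, binds its target and activates the proteases C1r and C1s, which cleave C4 and C2. In the alternative pathway, factor B (*Cfb*) forms a convertase with C3b, which properdin (*Cfp*) stabilizes. Both lead to cleavage of C3 (*C3*), the central component. The fragments C3a and C5a act on the receptors C3aR (*C3ar1*) and C5aR1 (*C5ar1*), while CD55 (*Cd55*) is a membrane protein that speeds the decay of the convertases. C1q is known as a product of tissue macrophages, unlike most plasma components, which come mainly from the liver.

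The libraries held 20312 cells (Mir34a_F/F, median 4787 UMIs per cell) and 18571 cells (Mir34a_Mye_KO, median 7716). A UMI (unique molecular identifier) marks 1 captured mRNA molecule. By median UMIs, the Mir34a_Mye_KO library was deeper in all 11 annotated cell types, least in endothelial cells (1.11 times) and most in B cells (5.69 times). The libraries shared 96 cell barcodes. Of 86 values of 43 cell type markers, 84 were highest in their own cell type, and the exception was *Fcer1a*, which was higher in mast cells than in basophils in both libraries. The primary *Mir34a* transcript had 133 UMIs in macrophages of the library labelled Mir34a_F/F and 462 in those of the library labelled Mir34a_Mye_KO, or 0.0723 and 0.111 per 10000 UMIs. A feature named crenlslyz2 had 451 and 172 UMIs in these macrophages, and *Lyz2*, the site of the LysM-Cre insertion, had 3892 and 1379 (1.44 and 0.371 per 10000 UMIs). What these features cover of the deleted and the inserted sequence is not given in the sources used here. Per 10000 UMIs crenlslyz2 was at 0.1635 and 0.0490, so it was lower in Mir34a_Mye_KO as *Lyz2* was. A feature named crenls had 0 UMIs in all cells of both libraries. Macrophages of both libraries had crenlslyz2 UMIs, although the Mir34a_F/F genotype carries no Cre. The feature is therefore not read as a measure of Cre here. Whether it counts Cre or *Lyz2* sequence was not tested. *Lyz2* is lower in the library labelled as carrying the insertion. The primary transcript and *Lyz2* moved in opposite directions, so every direction between the libraries rests on the labels.

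In the mouse genome (GRCm38, GENCODE annotation) the C1q genes lie side by side within 18.7 kb on the minus strand. *C1qb* is at chr4:136880129-136886187, *C1qc* at chr4:136889804-136893065 and *C1qa* at chr4:136895917-136898803. *C4b* (chr17:34728380-34743882), *Cfb* (chr17:34856374-34862518) and *C3* (chr17:57203970-57228136) share chromosome 17. The other genes are *C3ar1* (chr6:122847138-122856161), *C5ar1* (chr7:16246743-16259540), *Cd55* (chr1:130439027-130462744) and *Cfp* (chrX:20925454-20931555). *C4a* and *Cd55b* are related genes that lie near *C4b* and *Cd55*. How alike their sequences are was not tested. Reads that match both genes of a pair could be lost or miscounted, and the values of *C4b* and *Cd55* are uncertain to that extent.

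RefSeq promoter windows, from 250 bases before to 50 bases after the start, were at hand for 7 of the 10 genes. Each window was searched on both strands for 3 motifs, the first being GAGGAA, the core bound by PU.1 (*Spi1*), a factor of macrophages and neutrophils. It was found for *C1qb*, *C1qc* and *Cfp*, and it is in 28.3% of 32851 promoters. The C1q sites are shown because C1q mRNA marks the macrophages here. They are given from 5′ to 3′ in the direction of the gene (GRCm38.p6, minus strand) with the motif in capitals, which for *C1qc* reads on the opposite strand. The windows are chr4:136886216-136886239, where the motif begins 30 bases before the RefSeq start of *C1qb* at 136886200, and chr4:136893093-136893116, where it begins 193 bases before the RefSeq start of *C1qc* at 136892914. The latter start lies 151 bases downstream of the start of the gene in GENCODE.
C1qb: gcaggatggGAGGAAcagaggggt
C1qc: ggcagacacTTCCTCattttggca
In addition, GGGNNNTTC, part of the NF-kB consensus, is in 14.0% of promoters and was found for *C1qc*, *C3ar1* and *Cd55* but not in the window of *C3*. GAAANNGAA, part of the interferon-stimulated response element, is in 8.56% of promoters and was found for *C5ar1*. No match of a motif overlapped a match of another. A match is a description of the sequence and not of binding.

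The level of an mRNA is given as the mean over the cells of a type of its UMIs per 10000 UMIs of the cell, first for Mir34a_F/F and then for Mir34a_Mye_KO. Levels come from 3′ ends without length correction and are compared between cell types but not between genes. By their highest level in a cell type that had at least 50 cells in both libraries, the genes fell into groups of macrophages (the C1q chains, *Cfp*, *C3ar1*), neutrophils (*C5ar1*) and fibroblasts (*C3*, *C4b*, *Cfb*, *Cd55*), the same in both libraries. In Mir34a_F/F the place of *Cfb* and *Cd55* is not resolved, since their intervals in fibroblasts overlap those of other cell types. Nor is that of *Cfp* in Mir34a_Mye_KO, where macrophages and dendritic cells overlap.

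**Figure D1:**
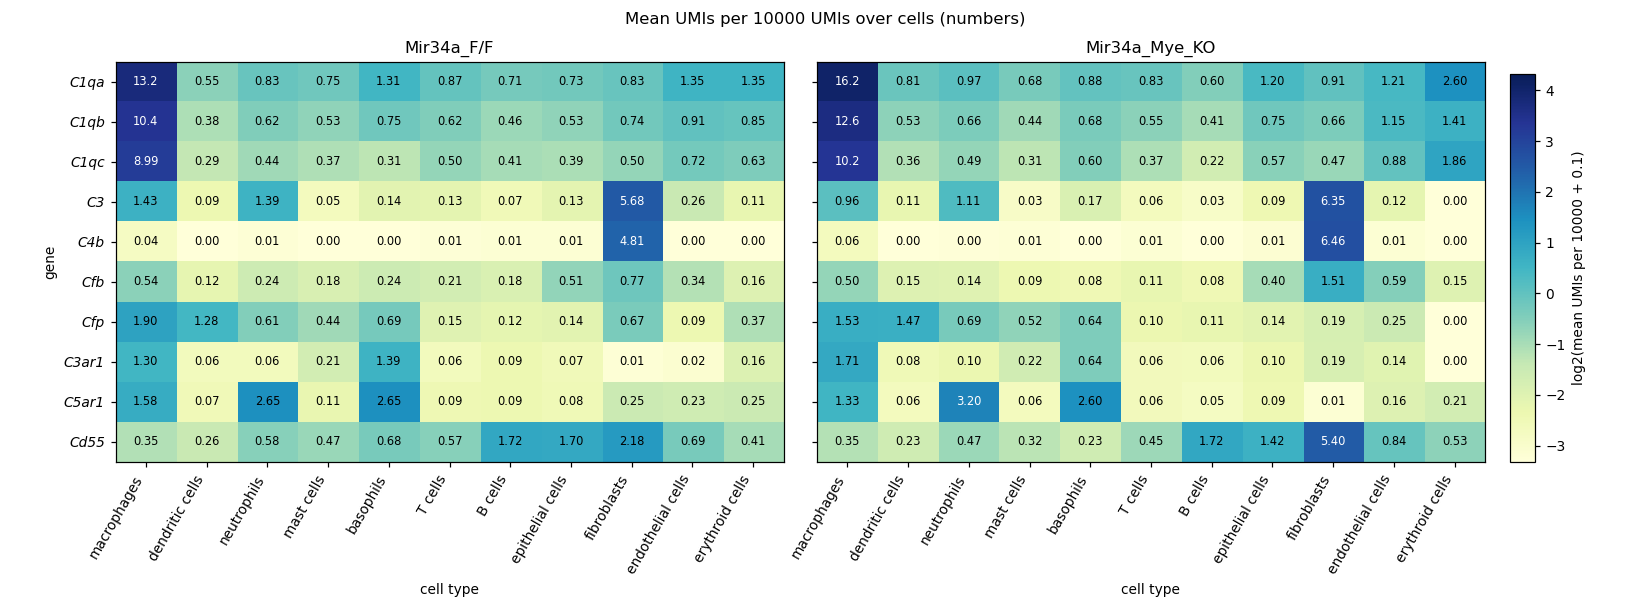
Mean UMIs per 10000 UMIs of each gene (vertical) in each annotated cell type (horizontal), as numbers, with the color on a log2 scale after adding 0.1, for 1 library per genotype. The C1q chains are highest in macrophages (*C1qa* 13.2 and 16.2), *C5ar1* in neutrophils and basophils, and *C3*, *C4b* and *Cd55* in fibroblasts.

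C1q mRNA was a macrophage mRNA. The level of *C1qa* in macrophages was 13.2 (13.0 to 13.4, 34841 UMIs) and 16.2 (16.0 to 16.4, 66534 UMIs). *C1qb* was at 10.4 and 12.6 and *C1qc* at 8.99 and 10.2. The log2 ratios were 0.30, 0.27 and 0.18, but 0.16, 0.15 and 0.015 with UMIs summed over the cells, where the interval of *C1qc* included 0. Macrophages held 86.2% (86.0 to 86.4) and 88.0% (87.9 to 88.2) of all C1q UMIs while being 10.9% and 14.0% of the cells. The 10 other cell types were below them, with *C1qa* between 0.55 in dendritic cells and 1.35 in endothelial and erythroid cells of Mir34a_F/F, and between 0.60 in B cells and 2.60 in erythroid cells of Mir34a_Mye_KO.

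Cells that are not known to make C1q also had such levels. In T cells *C1qa* was at 0.87 and 0.83, and 8.49% and 7.76% of them had a *C1qa* UMI after each cell was thinned to 1000 UMIs (23.3% and 38.5% unthinned). Thinned macrophages had a share of 47.6% and 57.8% (64.5% and 79.5% unthinned). Thinned dendritic cells had 5.78% and 6.73%, and thinned neutrophils 6.63% and 8.46%. Free mRNA in the droplets can give UMIs in any cell, so shares near that of T cells are not read as expression here. The source of these UMIs was not tested. The makeup of C1q UMIs differed between the cell types. *C1qa* was 40.3% (39.9 to 40.6) and 41.5% (41.3 to 41.8) of C1q UMIs in macrophages, 44.6% (42.5 to 46.7) and 46.3% (44.6 to 48.0) in T cells, and 43.2% (42.1 to 44.2) and 46.9% (46.0 to 47.7) in epithelial cells.

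In epithelial cells all C1q chains were higher in Mir34a_Mye_KO, with intervals above 0. *C1qa* was at 0.735 (3902 UMIs) and 1.20 (5992 UMIs), a log2 ratio of 0.70 (0.61 to 0.80), and the log2 ratios were 0.50 for *C1qb* and 0.55 for *C1qc*. In thinned cells the log2 ratios were 1.01 (0.87 to 1.145), 0.73 and 0.665 for *C1qa*, *C1qb* and *C1qc*. Over the alternatives, leaving out that with a pseudocount, these log2 ratios ranged from 0.70 to 1.33, 0.50 to 1.125 and 0.46 to 1.21. The alternatives include stricter cell filters, and none that gave a value turned the direction. The share of thinned epithelial cells with a *C1qa* UMI was 5.66% and 11%, below and above that of T cells. Shallow epithelial cells had the higher levels. Below 2000 UMIs *C1qa* was at 1.81 and 2.85, and in deeper cells it was at 0.53 and 0.88. Immunoglobulin mRNA, a product of plasma cells, moved with it, with a median of 0.52% and 2.22% of UMIs in the shallow cells and of 0.18% and 0.56% in the deeper cells. The median share of mitochondrial UMIs in epithelial cells was 11.2% and 18.3%. Of 5 macrophage markers, 4 were higher in epithelial cells of Mir34a_Mye_KO (all but *Cd68*), none was at 0, and their summed level was 0.611 and 0.839, against 0.656 and 0.619 in T cells. How much mRNA from macrophages, free mRNA and cell quality each contribute to this difference was not tested.

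**Figure D2:**
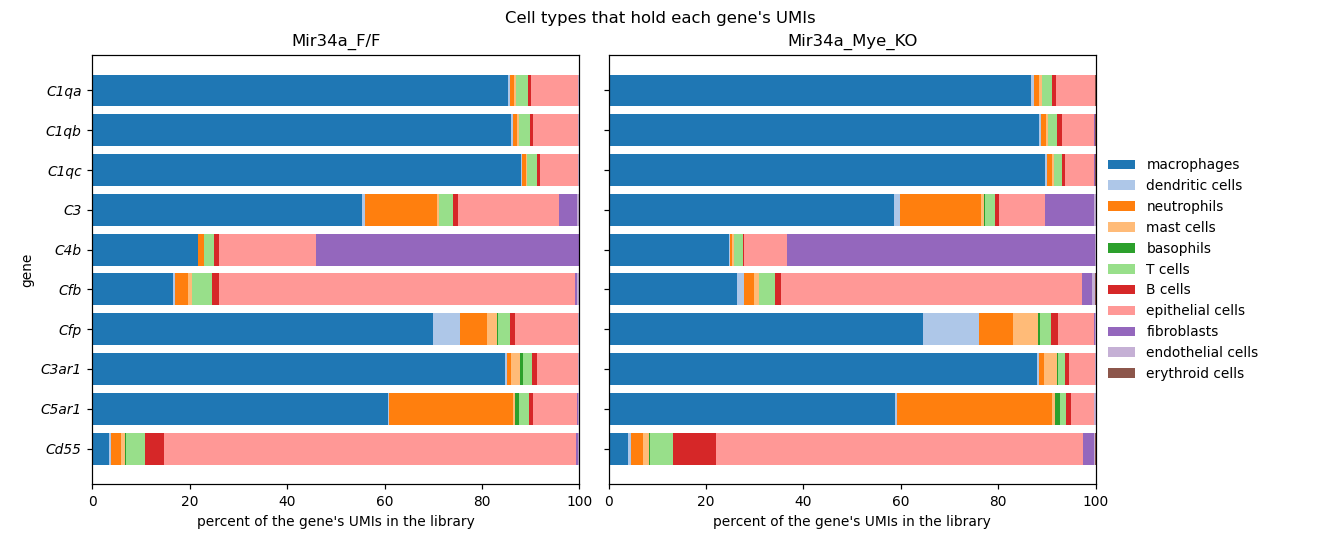
Percent of the UMIs of each gene that lie in each cell type, with 1 bar per gene and 1 panel per library. Macrophages hold most C1q, *C3ar1* and *Cfp* UMIs, fibroblasts most *C4b* UMIs and epithelial cells most *Cd55* and *Cfb* UMIs.

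C1q varied between macrophages. A C1q UMI was missing in 24.4% and 10.8% of them, and in 41.2% and 30.6% after thinning to 1000 UMIs, while after thinning 42.2% and 52.0% had at least 3. All chains together were found in 29.7% and 33.8%. In T cells, 0.40% and 0.42% had at least 3. The median over macrophages was 13.1 C1q UMIs per 10000 in Mir34a_F/F and 30.6 in Mir34a_Mye_KO, whereas the upper quartiles lay closer together, at 63.7 and 67.2.

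**Figure D3:**
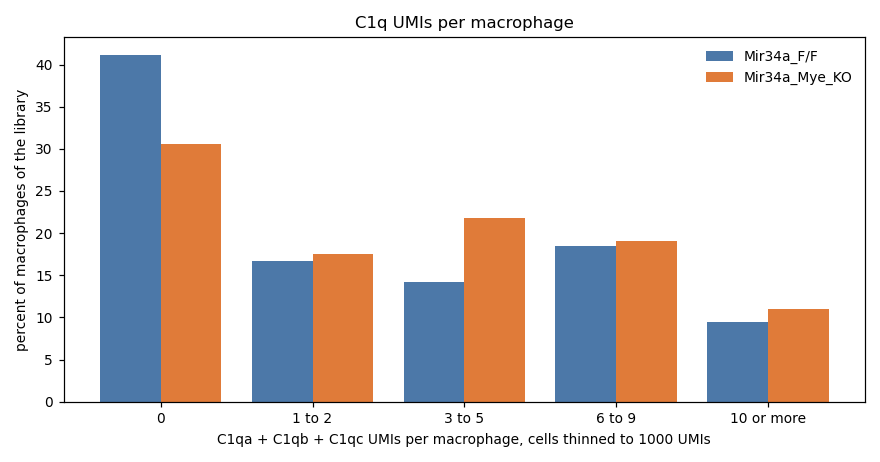
Percent of the macrophages of each library (vertical) by their number of *C1qa*, *C1qb* and *C1qc* UMIs after thinning each cell to 1000 UMIs (horizontal). Macrophages without a C1q UMI are 41.2% in Mir34a_F/F and 30.6% in Mir34a_Mye_KO, and those with 10 or more are 9.49% and 11.1%.

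Macrophages with at least 3 C1q UMIs (925 and 1348 cells) and those with 0 (903 and 793 cells) differed in other mRNAs of the thinned cells. Before thinning, the cells with C1q were deeper, with medians of 11704 and 16488 UMIs against 5507 and 10447. By the smaller ratio of the libraries, the mRNAs that were highest with C1q were *Adamdec1*, *Ccl8*, *Ms4a7*, *Pf4*, *Apoe*, *Vcam1*, *Selenop* and *Mrc1*, many of them known from resident tissue macrophages. *Ms4a7* had a log2 ratio of 4.14 and 3.90, and *Apoe*, which encodes apolipoprotein E, of 4.05 and 3.58. The mRNAs that were highest without C1q were *Ly6c2*, *Plcb1*, *Chil3*, *F10*, *Hp*, *Slpi*, *S100a4* and *Inhba*. *Ly6c2*, a marker of inflammatory monocytes, had a log2 ratio of −4.54 and −5.31. Of the other complement genes, *C3ar1* was higher with C1q (log2 ratio 2.75 and 2.96), as were *Cfp* (1.22 and 1.02) and, less so, *C5ar1* (0.34 and 0.90, where the first interval includes 0). *C3* was lower with C1q, by log2 ratios of −0.95 (−1.33 to −0.56) and −1.20 (−1.59 to −0.81). *C6*, a component of the membrane attack complex, had 48 UMIs with C1q and 0 without in Mir34a_F/F, and 122 and 4 in Mir34a_Mye_KO.

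Macrophages were also divided by marker UMIs after thinning. *Mrc1* and *Ly6c2* are among the genes that set macrophages with and without C1q apart, so the C1q levels of these classes describe the same association again. Cells with *Mrc1*, which encodes a mannose receptor of M2-like macrophages, were 12.5% and 18.5% of the macrophages. Cells with *Arg1* (arginase 1) but without *Mrc1* were 18.5% and 8.48%, and cells with *Ly6c2* but neither of the others were 7.57% and 5.67%. *C1qa* was highest in the *Mrc1* class (23.4 and 26.7) and lowest in the *Ly6c2* class (0.91 and 1.84), where the first value is near that of T cells. *C3ar1* followed it, with 2.41 and 3.17 in the *Mrc1* class and 0.25 and 0.22 in the *Ly6c2* class. *C5ar1* varied less, with 2.04 and 2.09 in the *Mrc1* class and 1.47 and 1.05 in the *Ly6c2* class. *C3* ran the other way, with 0.90 and 0.75 in the *Mrc1* class and 2.87 and 2.65 in the *Ly6c2* class. These classes depend on whether a UMI of the marker was drawn, so the remaining macrophages (61.5% and 67.4%) hold cells of each kind.

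*C1qa* was higher in Mir34a_Mye_KO in 3 of the 4 classes and lower in the other. The log2 ratio was 0.25 (0.21 to 0.28) among the remaining macrophages, 0.19 (0.14 to 0.24) in the *Mrc1* class and 1.02 (0.60 to 1.43) in the *Ly6c2* class. It was −0.51 (12.2 and 8.56, interval −0.60 to −0.42) in the *Arg1* class. With classes set at 2000 UMIs the values were 0.17, 0.073, 0.18 and −0.47 in this order, where the interval of the *Ly6c2* class included 0. *C3* was at −0.27 in the *Mrc1* class, −0.09 in the *Arg1* class, −0.12 in the *Ly6c2* class and −0.70 among the remaining macrophages, where the intervals of the *Arg1* and *Ly6c2* classes included 0. With classes set at 2000 UMIs these values were −0.65, −0.33, 0.058 and −0.67, and only the interval of the *Ly6c2* class included 0.

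**Figure D4:**
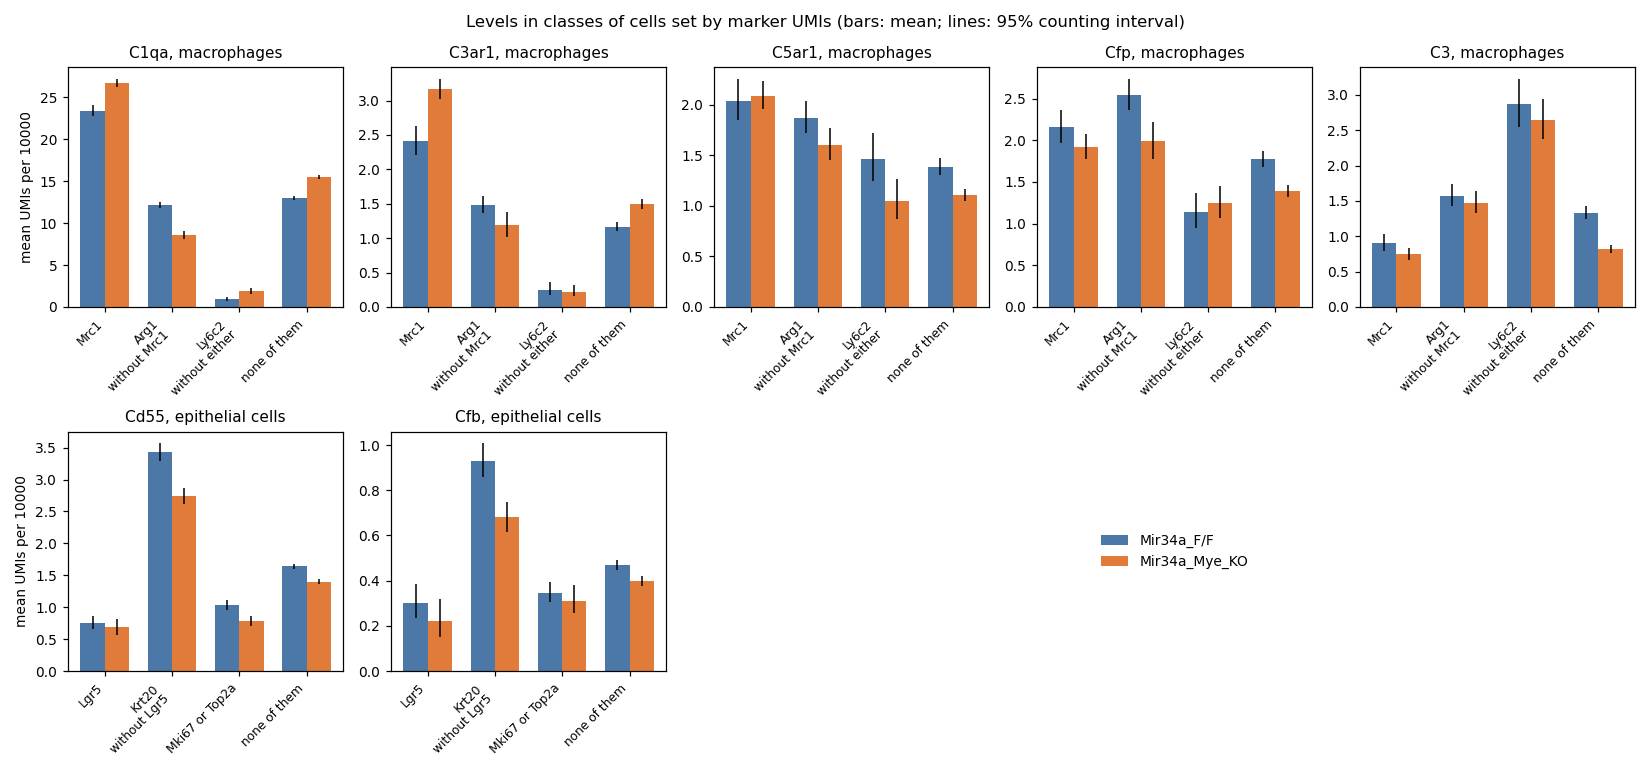
Mean UMIs per 10000 (vertical) of 5 complement genes in macrophages and of *Cd55* and *Cfb* in epithelial cells, by classes set from marker UMIs of cells thinned to 1000 UMIs (horizontal). Bars are means over cells and lines 95% counting intervals for 1 library per genotype. *C1qa* and *C3ar1* are highest with *Mrc1*, *C3* with *Ly6c2*, and *Cd55* and *Cfb* with *Krt20*.

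*C3* mRNA was found in several cell types. Its level was 5.68 (4.68 to 6.89) and 6.35 (5.78 to 6.98) in fibroblasts, 1.43 and 0.96 in macrophages and 1.39 and 1.11 in neutrophils. The remaining cell types were at or below 0.26. Fibroblasts are only 57 and 60 cells and held 3.85% and 10.1% of the *C3* UMIs, while most were in macrophages (55.5% and 58.6%). Neutrophils held 14.7% and 16.7%, and epithelial cells 20.7% and 9.50%. The level in epithelial cells of Mir34a_F/F (0.127) was near that in T cells (0.128), and is not read as expression. In Mir34a_Mye_KO it was 0.0887 (0.0781 to 0.101) and lay above that in T cells (0.0557, 0.0445 to 0.0697). The share of thinned cells with a *C3* UMI was 1.03% and 0.804% in epithelial cells against 0.965% and 0.606% in T cells. Among thinned neutrophils, a *C3* UMI was found in 10.3% and 4.40% of those with *C1qa* (7 of 68 and 4 of 91 cells) and in 11.9% and 8.83% of those without. Between the libraries, *C3* was lower in Mir34a_Mye_KO in macrophages (log2 ratio −0.57, −0.66 to −0.47) and neutrophils (−0.33, −0.49 to −0.16), while the interval in fibroblasts included 0 (0.16, −0.15 to 0.47). With UMIs summed over the cells, so that deep cells weigh more, these values were −0.29, −0.19 and 0.64, and the interval in fibroblasts (0.40 to 0.88) then lay above 0.

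*C4b*, an isoform of C4, was a fibroblast mRNA. Its level was 4.81 (3.98 to 5.83) and 6.47 (5.89 to 7.10) in fibroblasts and at most 0.06 in any other cell type. The 57 and 60 fibroblasts held 54.0% and 63.3% of its UMIs, while being 0.28% and 0.32% of the cells. *C4b* and *C3* were often found in the same fibroblasts. Without thinning, so that cell depth enters, 24 of 27 and 35 of 38 fibroblasts with *C4b* had *C3*, against 30% and 18.2% of those without *C4b*. After thinning to 1000 UMIs the numbers were 8 of 17 and 13 of 23, against 18.9% and 13.5%. The log2 ratio of *C4b* was 0.43 (0.12 to 0.73), but 0.20 (−0.46 to 0.85) in thinned cells. The 5 fibroblasts with the most *C4b* made up 49.4% and 36.5% of its level, and without them the means were 2.67 and 4.48.

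*Cfb* was also highest in fibroblasts, at 0.77 (23 UMIs) and 1.51 (143 UMIs), where the interval of the log2 ratio included 0 (0.98, −0.12 to 2.08) but lay above it with summed UMIs (1.49, 0.85 to 2.12). In Mir34a_F/F 5 of the 57 fibroblasts made up 68.6% of this level, and without them the mean was 0.263. In Mir34a_Mye_KO the 5 highest made up 42.9%, and without them the mean was 0.939. Macrophages were at 0.545 and 0.503 and epithelial cells at 0.51 and 0.40, and epithelial cells held 73.2% and 61.8% of its UMIs. T cells, which were 15.2% and 14.3% of the cells, held 4.1% and 3.3% of these UMIs. In epithelial cells with *Krt20*, a keratin of differentiated colonocytes, *Cfb* was at 0.93 and 0.68. In those with *Lgr5*, a stem cell marker, it was at 0.30 and 0.22. The log2 ratio in epithelial cells was −0.33 (−0.42 to −0.24) but 0.04 with summed UMIs.

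*Cfp* was highest in macrophages and dendritic cells. Macrophages were at 1.90 (1.83 to 1.98) and 1.53 (1.47 to 1.59), dendritic cells at 1.28 and 1.47, and neutrophils at 0.61 and 0.69. Basophils (0.694 and 0.636) and mast cells (0.439 and 0.521) had levels of like size. T cells, B cells and epithelial cells did not exceed 0.15. *Cfp* was lower in macrophages of Mir34a_Mye_KO (log2 ratio −0.31, interval −0.39 to −0.23). The intervals for dendritic cells and for neutrophils included 0. With summed UMIs the interval for dendritic cells lay above 0 (0.35, 0.18 to 0.53), while in thinned dendritic cells it included 0 (−0.033, −0.60 to 0.53).

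The anaphylatoxin receptors differed in their cells. *C3ar1* was at 1.30 (1.25 to 1.36) and 1.71 (1.65 to 1.76) in macrophages and at 0.06 and 0.10 in neutrophils. In contrast, *C5ar1* was at 2.65 (2.50 to 2.82) and 3.20 (3.07 to 3.34) in neutrophils and at 1.58 and 1.33 in macrophages. The cells annotated as basophils had both, with *C5ar1* at 2.65 and 2.60 and *C3ar1* at 1.39 and 0.64, in only 48 and 40 cells. Neutrophil markers were also found in them. The summed level of 4 such markers was 209 and 194, against 721 and 509 in neutrophils and 5.84 and 5.49 in macrophages, with none at 0. The part of neutrophil mRNA in the *C5ar1* of basophils was not tested. For *C5ar1*, the intervals of basophils and neutrophils overlapped in both libraries, so their order is not resolved. Macrophages held 84.8% and 88.0% of *C3ar1* UMIs, and macrophages and neutrophils together most *C5ar1* UMIs (60.7% and 58.9% in macrophages, 25.4% and 32.0% in neutrophils). *C3ar1* was higher in macrophages of Mir34a_Mye_KO (log2 ratio 0.39, 0.31 to 0.47). *C5ar1* was lower there by the mean over cells (−0.25, −0.33 to −0.17), but the interval included 0 with summed UMIs (−0.055, −0.12 to 0.0065) and in thinned cells (−0.11, −0.32 to 0.10). In neutrophils *C5ar1* was higher (0.27, 0.17 to 0.38).

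*Cd55* marked fibroblasts, B cells and epithelial cells. It was at 2.18 (84 UMIs) and 5.40 (509 UMIs) in fibroblasts, at 1.72 in B cells of both libraries, and at 1.70 and 1.42 in epithelial cells, which held 84.6% and 75.4% of its UMIs. T cells had 0.57 and 0.45 and macrophages 0.35 in both. Within the epithelium, *Cd55* was at 3.43 (3.30 to 3.57) and 2.74 (2.62 to 2.86) in cells with *Krt20*, at 0.75 and 0.68 in cells with *Lgr5*, and at 1.03 and 0.78 in cycling cells, which had a UMI of *Mki67* or *Top2a*. In fibroblasts the 5 cells with the most *Cd55* made up 42.2% and 38.0% of its level, and without them the means were 1.38 and 3.65. The log2 ratio in epithelial cells was −0.26 (−0.31 to −0.22), but 0.16 with UMIs summed over the cells.

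The size of the differences between the libraries was read against all genes. A difference was called at a log2 ratio of at least 1 in size, among pairs of gene and cell type with at least 10 UMIs in both libraries and a mean of at least 0.1 in 1 of them. Of 75 such pairs of the complement genes, 2 were higher and 5 lower in Mir34a_Mye_KO. Over all genes, 1.35% of pairs were called higher and 4.0% lower. The higher pairs were *Cd55* in fibroblasts (log2 ratio 1.31, 0.82 to 1.80) and *C1qc* in erythroid cells (1.56, 0.34 to 2.78, with 14 and 32 UMIs). The lower pairs were *C3* in T cells (−1.20, −1.66 to −0.75, with 129 and 116 UMIs in all) and endothelial cells (−1.09, 17 and 14 UMIs), where the interval included 0 (−2.48 to 0.30). The others were *Cfb* in B cells (−1.10, −1.89 to −0.31, 87 and 84 UMIs), and *C3ar1* (−1.12, −1.98 to −0.25, 22 and 28 UMIs) and *Cd55* (−1.55, −2.81 to −0.29, 14 and 11 UMIs) in basophils. In T cells and B cells all of 4 epithelial markers were lower in Mir34a_Mye_KO as well, with summed levels of 21.2 and 11.6 and of 18.7 and 8.24. In T cells all of 4 neutrophil markers were lower too (4.51 and 2.63), while 2 of 5 macrophage markers were higher. The part of all these markers in the lower values there was not tested. In basophils all of the 4 epithelial markers were lower (22.3 and 10.7), and their part in the lower values was not tested. Other mRNAs also moved in the fibroblasts in which *Cd55* was called. Of 4 fibroblast markers 3 were higher in Mir34a_Mye_KO, with summed levels of 59.97 and 99.86, all of 4 neutrophil markers were lower (14.6 and 2.38, with 1 value at 0), and so were 3 of 5 macrophage markers (1.34 and 0.892, with 1 value at 0) and 3 of 4 epithelial markers (22.7 and 14.6). Their part in the higher *Cd55* was not tested. Apart from *Cd55* in fibroblasts, none of these pairs had more than 129 UMIs in a library, and counts this small lie near the shares over all genes. In macrophages and in epithelial cells none of the complement genes was called, where 1.10% and 0.762% of all genes were called in either direction. Under alternatives, though, the C1q chains of epithelial cells passed this fold, as given above, and no share over all genes is given for these. In fibroblasts, where *Cd55* was called, 3.40% of all genes were called higher, and in erythroid cells, where *C1qc* was called, 11.8%. In the cell types of the lower pairs, the share of all genes called lower was 1.17% in T cells and 8.06% in endothelial cells. It was 8.25% in B cells and 9.23% in basophils.

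The median log2 ratio of the complement genes compared lay near that of all genes in macrophages (9 genes, −0.040 against −0.058). It lay above it in neutrophils (8 genes, 0.12 against −0.15), epithelial cells (7 genes, 0.0052 against −0.22), fibroblasts (7 genes, 0.16 against −0.16), dendritic cells (7 genes, 0.33 against 0.0042), B cells (6 genes, −0.21 against −0.34), endothelial cells (7 genes, 0.28 against −0.16) and erythroid cells (3 genes, 0.95 against 0.12). It lay below it in T cells (7 genes, −0.40 against −0.091), basophils (6 genes, −0.36 against −0.15) and mast cells (8 genes, −0.26 against −0.13). The 3 genes of erythroid cells are the C1q chains, with 14 to 45 UMIs in a library. C1q chains are also among the genes behind the medians of the other cell types. Outside macrophages the source of their UMIs was not tested.

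**Figure D5:**
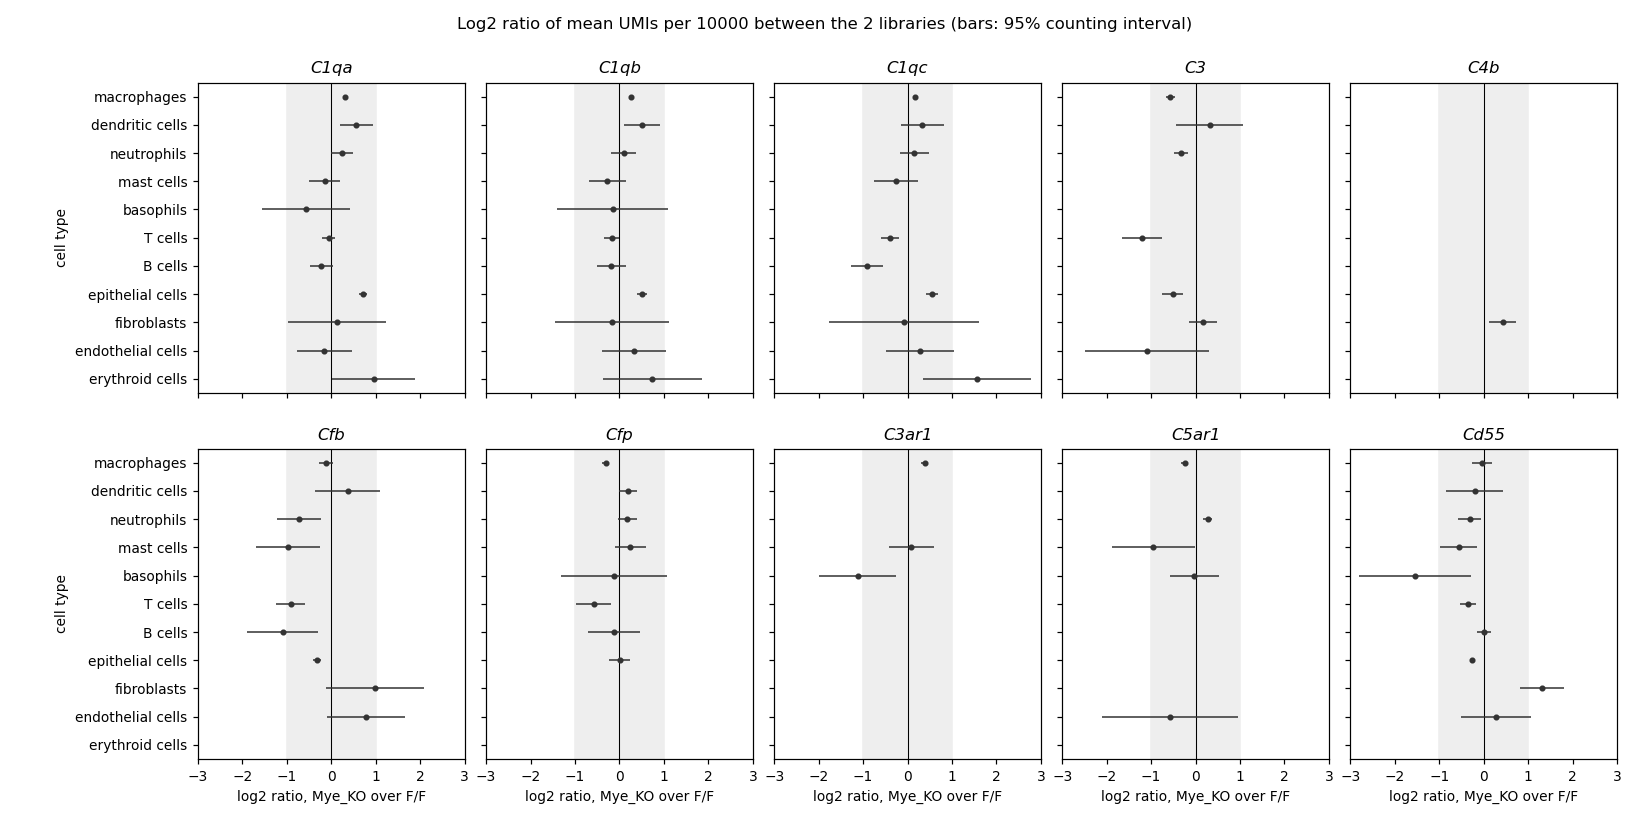
Log2 ratio of the mean UMIs per 10000 in Mir34a_Mye_KO over Mir34a_F/F (horizontal) for each gene and cell type (vertical) that met the minimum of UMIs, with 95% counting intervals. The shaded band marks log2 ratios below 1 in size, and *Cd55* in fibroblasts lies above it at 1.31.

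Other genes of the pathway completed the picture of the cells. Of 40 listed genes, 11 reached a mean of 0.5 in a cell type of both libraries and 11 had fewer than 50 UMIs in each library. The proteases that C1q activates were fibroblast mRNAs, with *C1s1* at 4.86 and 4.65 and *C1ra* at 1.51 and 1.85. So was *Serping1* (6.06 and 6.43), which encodes the soluble inhibitor that blocks C1r and C1s. *Clu*, which encodes clusterin, a fluid-phase inhibitor of the membrane attack complex, was highest in epithelial cells (3.84 and 2.49). *Itgam*, a chain of complement receptor 3, was highest in neutrophils (3.31 and 4.10), *Cr2*, complement receptor 2, in B cells (0.37 and 0.54), and *Cd93* in endothelial cells (2.11 and 1.97). Of the terminal components, *C6* was found in macrophages (0.30 and 0.58), while *C9* had 84 and 103 UMIs in all, *Hc*, which encodes C5, 55 and 119, and *C8g* 83 and 64. *C7*, *C8a* and *C8b* had at most 19 UMIs in a library. *Cfd*, factor D of the alternative pathway, had 3 UMIs and 0. Between the libraries, 2 of 78 pairs of these genes were called higher and 7 lower, 3 of them *Clu* (T cells, B cells and fibroblasts), beside 1.35% and 4.0% of the pairs of all genes. *Clu* is highest in epithelial cells, and epithelial markers were lower with it in T cells and B cells, as given above, and in fibroblasts. Their part in it was not tested.

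Likeness between genes was measured by Pearson's r of log2 levels over the 22 means (11 cell types in 2 libraries), among 5878 genes, as a description. The means share their libraries, so no test was made. The C1q chains were most like each other, with r of 0.991 between *C1qa* and *C1qb*, and next to them came *Ms4a7* and *Apoe*. *C4b* was most like *Cygb*, *Col5a1* and *Adamts2* (r of at least 0.996), and *C3* like *Tnfaip6* (0.934), *Timp2* and *Pdpn*. *C5ar1* was most like *Clec4e* (0.979), *Cxcl2* and *Clec4d*, and *Cfp* like *Cd300a* (0.893), *Spi1* and *Capza2*. *C3ar1* was most like *Ccl9* (0.839), *Cfb* like *Rin2* (0.918) and *Cd55* like *Sorcs2* (0.836).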

How the data were processed

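Single-cell RNA sequencing was done on CACs, with 1 library per genotype (10x 3′ v3.1). The authors aligned reads to mm10 with Cell Ranger 7.2.0, selected cells on expressed mRNAs and mitochondrial content, used Scrublet against doublets, and normalized the values in Seurat. The deposited values are the natural log of 1 plus UMIs per 10000 of the cell. Undoing the log gave whole UMI counts for 32291 genes and 38883 cells (largest deviation 1.5e-10). The deposited annotation of library and cell type was used as given, and cells were not assigned to mice.

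Levels are means over cells of UMIs per 10000, and ratios are log2 of Mir34a_Mye_KO over Mir34a_F/F. With 1 library per genotype no test was made. Intervals (95%) are from a weighted Poisson sum for levels and ratios, exact Poisson for UMI sums and exact binomial for shares. The intervals of ratios were tested on counts simulated from the same Poisson model. That test cannot show how they hold where cells of a type differ. Differences between cells are not part of the intervals of levels and ratios. Depth per library was 147109016 and 193133086 UMIs, and shallow cells limit rare mRNAs most. For shares and classes, cells were thinned to 1000 UMIs, which left out 840 and 181 shallower cells. Fibroblasts are also given unthinned where the text says so. Classes were set by UMIs of *Mrc1*, *Arg1*, *Ly6c2*, *Krt20*, *Lgr5*, *Mki67* and *Top2a*.

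The members, the other pathway genes, markers and motifs were chosen with earlier results of these data known. Named genes are the members, the pathway list, the 3 genes most like each member and the 8 per direction with the largest ratio between macrophages with at least 3 and with 0 C1q UMIs. Likeness used a pseudocount of 0.1 and genes with a mean of at least 0.5. Alternatives were summed UMIs, thinning, stricter cell filters, a pseudocount of 1, totals that leave out 409 genes (immunoglobulin, mitochondrial, ribosomal RNA-like), subtraction of the T cell mean, no UMI minimum and, for classes, thinning to 2000 UMIs. Chosen after seeing the data were leaving out shared barcodes and cells under 2000 UMIs. Python 3.11.15, numpy 2.4.6, scipy 1.17.1, pandas 2.3.3 and matplotlib 3.10.9 were used.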

Additional observations from a re-analysis of the deposited data

Results flagged for a closer look

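Several genes were higher in Mir34a_Mye_KO in 1 cell type and lower in another, with intervals that lie off 0 on opposite sides. The differences between cell types were not tested. *C1qb* had a log2 ratio of 0.50 in epithelial cells and −0.18 (−0.35 to −0.0040) in T cells, 0.68 apart, though the ratio in T cells was 0.019 among cells with at least 2000 UMIs. *C1qc* had 0.55 in epithelial cells and −0.92 in B cells, 1.47 apart. In B cells its level (0.41 and 0.22) is below that of T cells (0.50 and 0.37), and the median log2 ratio of all genes was −0.34 there, with 8.25% called lower. *Igkc*, an immunoglobulin light chain, was at 777 and 1495 per 10000 UMIs in B cells. With totals that leave out 409 genes, immunoglobulin among them, *C1qa* and *C1qb* in B cells turned from −0.23 and −0.18 to 0.089 and 0.19. Their intervals had included 0. *C1qc* stayed lower under every alternative that gave a value. The part of *Igkc* alone was not tested. *C5ar1* had 0.27 in neutrophils and −1.04 in B cells, 1.31 apart, where its level in B cells (0.094 and 0.046) is under the mean of 0.1 asked of the pairs counted in the report. The rule here asked for 50 UMIs in each library and no mean. *Cd55* had 1.31 in fibroblasts and −0.57 in mast cells, 1.88 apart. The epithelial markers read in mast cells, *Epcam* (3.97 and 2.65) and *Krt8* (10.2 and 4.36), were lower there too. Their part was not tested.

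Opposite directions were also found between classes of macrophages, again untested, with classes set at 1000 UMIs. *C1qa* was at 1.02 with *Ly6c2* and −0.51 with *Arg1*, 1.52 apart. *C1qb* was at 0.62 and −0.61 in these classes, 1.23 apart, and *C1qc* at 0.77 and −0.77, 1.54 apart. With classes set at 2000 UMIs the log2 ratios in the *Ly6c2* class fell to 0.18, 0.22 and 0.21, all with intervals that include 0, while those in the *Arg1* class were −0.47, −0.42 and −0.69. The *Ly6c2* level of *C1qa* in Mir34a_F/F (0.91) is near that of T cells (0.87). *Cfb* was at 0.50 with *Arg1* and −0.23 in the remaining macrophages, 0.73 apart, but the ratio with *Arg1* turned to −0.36 with classes set at 2000 UMIs. *C3ar1* was at 0.40 with *Mrc1* and −0.33 with *Arg1*, 0.72 apart, and at 0.33 and −0.41 with classes set at 2000 UMIs.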

How the results depend on the processing

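Of 75 ratios of a complement gene in a cell type, 36 had an interval off 0, and 32 of these kept their direction under each alternative that gave a value. The others were *Cfb* (0.043) and *Cd55* (0.16) in epithelial cells with summed UMIs, *Cfb* in neutrophils (0.21) with the T cell mean subtracted and *C1qb* in T cells (0.019) among cells with at least 2000 UMIs. The cause was not tested. A pseudocount and the lack of a UMI minimum cannot turn the direction of these ratios. Thinning gave a value for 54 of the 75 ratios and subtraction of the T cell mean for 35. The log2 ratio of the C1q chains together in macrophages was 0.26 (0.24 to 0.27). It was 0.12 with summed UMIs, 0.23 with thinning, 0.29 with at least 500 expressed genes and under 10% mitochondrial UMIs, 0.36 with totals that leave out 409 genes (immunoglobulin, mitochondrial, ribosomal RNA-like), 0.28 with the T cell mean subtracted and 0.20 in cells with at least 2000 UMIs. The count of 2 pairs called higher was 5 with summed UMIs, 6 with at least 500 expressed genes and under 10% mitochondrial UMIs, 4 under 25% mitochondrial UMIs, 1 with a pseudocount of 1, 5 with the reduced totals, 5 without a UMI minimum and 5 in cells with at least 2000 UMIs. The count of 5 called lower was 0 with thinning, where 54 ratios met the minimum, 0 with a pseudocount of 1, 2 with the reduced totals and 8 without a UMI minimum. Of 152 class levels, 92 stayed within their interval when cells were thinned to 2000 UMIs. Of 49 class ratios with an interval off 0, 3 turned direction there: *Cfb* in *Arg1* macrophages (−0.36), *C1qc* in *Mrc1* macrophages (−0.011) and *C5ar1* in epithelial cells without a class marker (−0.12). No shares over all genes are given for the alternatives, for intervals off 0 or for the classes. The counts above are therefore not read as a result about the complement genes. No paired analysis was possible because each genotype has 1 library. Of 110 pairs of gene and cell type, 88 had at least 10 UMIs in both libraries.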
